A study of Mus musculus with 14 samples.

Results

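The Id genes *Id1*, *Id2*, *Id3* and *Id4* encode the inhibitors of DNA binding, and all 4 were found by symbol among the 24454 genes of a count table of mouse forelimb bud cells. They were taken as a readout of the response to bone morphogenetic proteins (BMPs), and their levels were described in all 14 libraries of 5 cell populations sorted by FACS from Sox9-IRES-EGFP embryos. Every population was live (7AAD-) and negative for the lineage markers CD31, Ter119, CD45, EpCam, Gr1 and CD11b, which remove endothelial, blood and epithelial cells. In the names of the populations, S9 refers to the EGFP reporter of *Sox9* and its sign to whether the sorted cells had it. The JAG1+ limb bud mesenchymal progenitors (S9-JAG1+ LMPs, 3 libraries) lacked EGFP and SCA-1 and carried the Notch ligand JAG1 on their surface. The PDGFRa-high LMPs (S9-Pαhi, 3 libraries) lacked EGFP, JAG1 and SCA-1 and had high surface levels of the PDGF receptor alpha. The osteo-chondrogenic progenitors (OCPs, S9+Pαhi, 3 libraries) had EGFP and high PDGFRα. These populations and the S9-SCA-1+ cells (2 libraries, replicate numbers 2 and 3) came from forelimb buds at E10.5. The chondroblasts (S9+COL2+, 3 libraries) came from forelimb buds at E11.5, so that stage and population cannot be told apart in any comparison with them. Each library was made from pooled buds of several embryos of both sexes, no agent was given, and all populations carry the same reporter allele.

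Id proteins have a helix-loop-helix but no basic region. They bind the E proteins, which are the common partners of tissue-specific bHLH factors such as MYOD1, and the resulting dimers do not bind DNA. BMP ligands bind pairs of type I and type II receptors, the receptors phosphorylate SMAD1, SMAD5 and SMAD9, and these enter the nucleus with SMAD4, where *Id1*, *Id2* and *Id3* are among the best known direct targets. In the limb bud, BMP signaling acts on cell death, digit patterning and the condensation of cartilage.

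On GRCm38, *Id1* (Entrez 15901) lies on chromosome 2 at 152736251 to 152737410 on the plus strand, *Id2* (15902) on chromosome 12 at 25093799 to 25096092 on the minus strand, *Id3* (15903) on chromosome 4 at 136143822 to 136145392 and *Id4* (15904) on chromosome 13 at 48261116 to 48266028, both on the plus strand. The stretch of 41 codons that is most alike among the 4 coding sequences is printed to show how close the members are and where they part. It codes for the helix-loop-helix, lies in exon 1 of each gene, and was read from the GENCODE transcripts of GRCm38. Capitals mark the 68 of 123 bases that are identical in all 4 genes, and each line runs 5′ to 3′ on the coding strand.
Id1 (chromosome 2, 152736512 to 152736634, codons 58 to 98): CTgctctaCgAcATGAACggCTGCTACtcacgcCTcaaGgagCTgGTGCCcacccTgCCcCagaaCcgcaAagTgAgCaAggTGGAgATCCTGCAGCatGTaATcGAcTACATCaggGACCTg
Id2 (chromosome 12, 25095786 to 25095908, codons 35 to 75): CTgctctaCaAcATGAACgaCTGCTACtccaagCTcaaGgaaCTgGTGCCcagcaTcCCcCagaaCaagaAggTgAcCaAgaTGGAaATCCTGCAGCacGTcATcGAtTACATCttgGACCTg
Id3 (chromosome 4, 136143996 to 136144118, codons 40 to 80): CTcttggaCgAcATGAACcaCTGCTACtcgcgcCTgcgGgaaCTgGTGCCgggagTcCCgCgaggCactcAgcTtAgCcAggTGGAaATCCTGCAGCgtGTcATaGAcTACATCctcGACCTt
Id4 (chromosome 13, 48261687 to 48261809, codons 64 to 104): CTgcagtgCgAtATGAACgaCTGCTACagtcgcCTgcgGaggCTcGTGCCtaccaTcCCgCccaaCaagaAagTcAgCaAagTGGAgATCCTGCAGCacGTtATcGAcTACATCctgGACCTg

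In this stretch *Id1* and *Id2* shared 82.1% of their bases, the closest pair, and *Id1* and *Id3* shared 69.1%. The same amino acid was coded in all 4 genes at 22 of the 41 codons. Over the whole transcripts the longest run of bases shared by any pair of members was 19 bases (*Id2* and *Id3*), so that no stretch of 50 bases could be counted for another member. Of the 1221 stretches of 50 bases in the *Id2* transcript, 8 also occur in the gene Gm6175, while none of those of *Id1* or *Id3* occurs in the transcripts of another gene. *Id4* is overlapped on the opposite strand by A330033J07Rik (chromosome 13, 48044231 to 48262623) and Gm49291 (chromosome 13, 48239054 to 48262591), which share 79 of its 3800 stretches. The sources used here do not say if counting took strand into account, so that reads of *Id4* and of these antisense genes cannot be told apart where they overlap.

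The 250 bases before the start were available from RefSeq (GRCm38.p6) for *Id2*, *Id3* and *Id4*. They were searched on both strands for GGCGCC, the GC-rich core that Smads bind in *Id* promoters. It was found once in *Id2* and once in *Id4* and not in *Id3*. Of all 32851 windows of this length, 9.59% hold it. The matches are shown in capitals with 10 bases on each side.
Id2, 231 bases before the start (chromosome 12, 25096308 to 25096333, minus strand): aggccccctgGGCGCCcagcgcacac
Id4, 148 bases before the start (chromosome 13, 48260958 to 48260983, plus strand): cgggttgcccGGCGCCccgccctcgc
The palindrome GTCTAGAC, which holds the base pairs bound by Smad MH1 domains, was in none of these windows and in 0.167% of all. The E-box CANNTG, bound by bHLH dimers, was found once in *Id2* and in 66.2% of all windows.

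Library totals lay between 20316583 and 29162751 counts. The 4 Id genes took 5500 to 14423 counts of a library, and the smallest count of a member was 16 (*Id4* in replicate 2 of the SCA-1+ cells). A count of 3 corresponds to 0.101 to 0.149 CPM, which is the limit that a count of 0 allows, for counting error only. Levels are in CPM, the count of a gene relative to the size of its library after scaling by TMM. *Jag1* was at 296 CPM ± 67.9 (SD, n = 3) in JAG1+ LMPs, at 119 CPM in chondroblasts and at 11.8 to 19.7 CPM on average in the others. *Sox9* was at 437 CPM ± 7.03 (SD, n = 3) in OCPs and 536 CPM in chondroblasts and at 11.03 to 62.3 CPM in the others. *Pdgfra* was at 246.7 CPM in JAG1+ LMPs, 442.5 to 864 CPM in PDGFRa-high LMPs, OCPs and chondroblasts, and 34.4 CPM in SCA-1+ cells. The summed myogenic markers *Pax3*, *Lbx1*, *Met*, *Myf5* and *Pax7* stood at 1473 and 1479 CPM in the SCA-1+ libraries, and the highest sum among the other 12 libraries was 9.99 CPM. *Ly6a*, which encodes SCA-1, was low but highest in the SCA-1+ libraries, at 3.10 and 3.36 CPM against at most 0.406 CPM in any other library. Replicate 3 of the SCA-1+ cells stood apart by its red blood cell genes (*Hbb-y*, *Hba-x*, *Hbb-bh1*, *Alas2*), with 2437 CPM against 90.2 CPM in replicate 2 and 1.90 to 52.5 CPM in the other 12 libraries. The summed markers of endothelium, ectoderm, leukocytes and neural crest and glia were at most 29.2 CPM in every library. Those of neural crest and glia were highest in chondroblasts (24.9 CPM on average) and OCPs (15.3 CPM), against 4.35 to 7.92 CPM in the others. The part of such cells in the Id levels was not tested.

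The 4 Id genes did not share 1 pattern across the populations. *Id1* was lowest in SCA-1+ cells, where *Id2* was highest. *Id3* varied least, and *Id4* was low throughout with its highest level in chondroblasts. All 4 differed among the 5 populations in the joint test of edgeR's quasi-likelihood method, with adjusted p values of 4.65e-07 for *Id1*, 5.60e-08 for *Id2*, 8.27e-06 for *Id3* and 3.54e-06 for *Id4*. A gene is said to pass where the Benjamini-Hochberg adjusted p over the 15125 tested genes is at most 0.1. By this rule 74.8% of all tested genes passed the joint test, so that 4 of 4 is not far from the background. In bulk samples a lower level can mean fewer cells that express a gene or less RNA per cell, and these cannot be told apart.

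**Figure D1:**
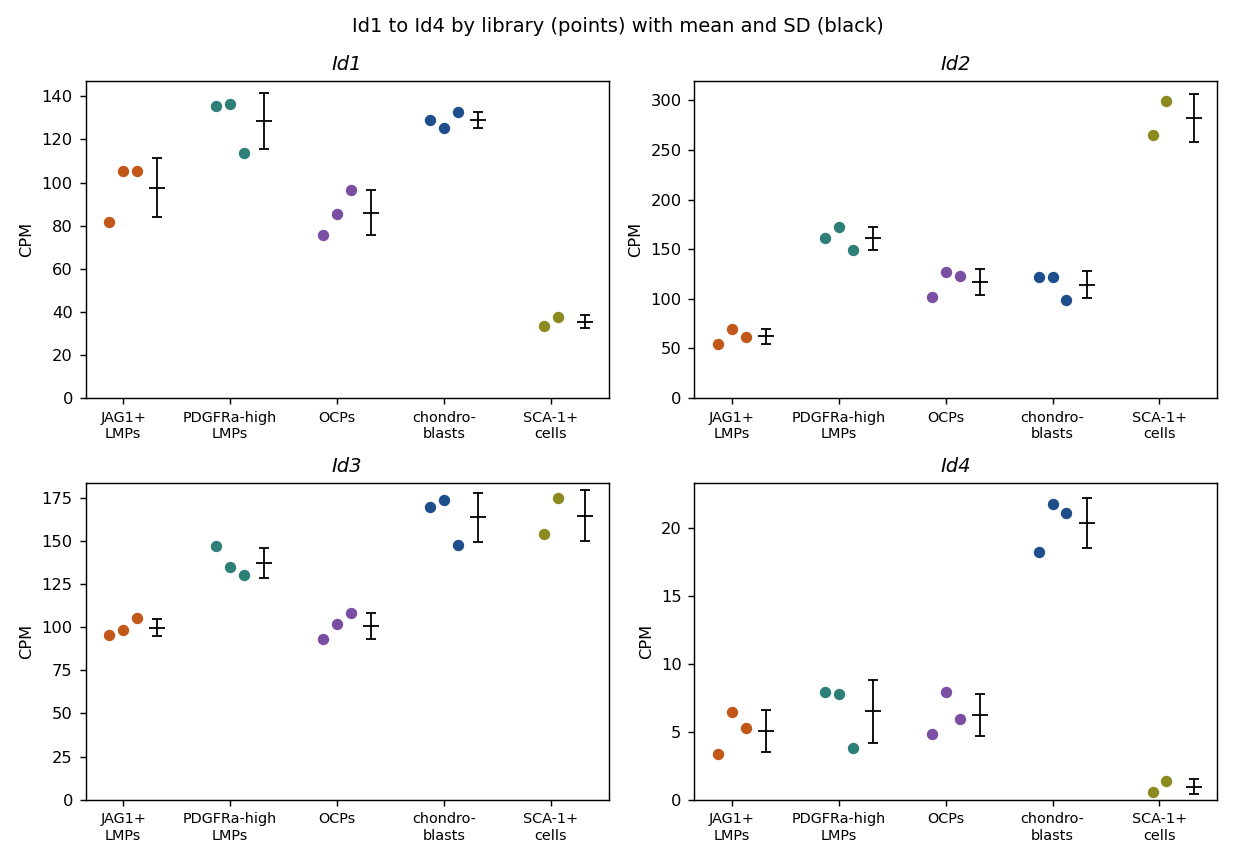
Levels of Id1, Id2, Id3 and Id4 in CPM (vertical axes, each starting at 0) in the 14 libraries (points, coloured by population), with the mean and SD of each population in black. The SCA-1+ libraries are the lowest for Id1 and Id4 and the highest for Id2, and the 3 chondroblast libraries are the highest for Id4, at 18.3 to 21.8 CPM.

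*Id1*, the member most often used to read BMP activity, was at 129, 125 and 133 CPM in the chondroblast libraries and at 136, 137 and 113 CPM in those of PDGFRa-high LMPs. It stood at 81.8, 106 and 106 CPM in JAG1+ LMPs and at 75.8, 85.4 and 96.8 CPM in OCPs. The SCA-1+ libraries had 33.2 and 37.5 CPM. The first pair of populations overlapped, as did JAG1+ LMPs and OCPs, and the SCA-1+ libraries lay below all others. Ordered by mean, the levels were 129 CPM ± 3.69 in chondroblasts, 129 CPM ± 13.1 in PDGFRa-high LMPs, 97.6 CPM ± 13.7 in JAG1+ LMPs, 86.0 CPM ± 10.502 in OCPs and 35.4 CPM ± 3.07 in SCA-1+ cells (SD, n = 3, and n = 2 for SCA-1+ cells). The first 2 did not differ beyond their spread, with a log2 difference of 0.00 and a 95% interval from -0.24 to 0.25. The same held for OCPs against JAG1+ LMPs, at -0.18 with an interval from -0.43 to 0.07 and an adjusted p of 0.230. That last difference passed without replicate 1 of the JAG1+ LMPs (-0.30, adjusted p = 0.0575) and without replicate 3 of the OCPs (-0.30, adjusted p = 0.0852). PDGFRa-high LMPs exceeded JAG1+ LMPs by 0.40 (standard error 0.12, adjusted p = 0.0250). SCA-1+ cells were 2.43-fold lower than OCPs, their nearest neighbour, with a log2 difference of -1.28 (standard error 0.14, adjusted p = 6.55e-06). In all, 8 of the 10 pairs of populations passed for *Id1*. Depending on the pair, 20.1% to 65.9% of all tested genes passed. The share of all genes whose libraries do not overlap between populations was not determined, for this member or those that follow.

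*Id2* was lowest in JAG1+ LMPs, with 54.9, 69.8 and 61.7 CPM. The chondroblast libraries had 122, 122 and 98.4 CPM and those of OCPs 102, 127 and 123 CPM. PDGFRa-high LMPs followed with 161, 172 and 149 CPM, and the SCA-1+ libraries had 265 and 299.7 CPM. Only chondroblasts and OCPs overlapped. The means were 282.6 CPM ± 24.2 in SCA-1+ cells, 161 CPM ± 11.3 in PDGFRa-high LMPs, 117 CPM ± 13.2 in OCPs, 114 CPM ± 13.6 in chondroblasts and 62.1 CPM ± 7.45 in JAG1+ LMPs. Each step in this order passed except that from OCPs to chondroblasts, where the log2 difference was -0.04 with a 95% interval from -0.29 to 0.21. SCA-1+ cells exceeded PDGFRa-high LMPs by 0.81 (1.76-fold, standard error 0.13, adjusted p = 0.000259). Chondroblasts exceeded JAG1+ LMPs by 0.88 (1.84-fold, standard error 0.12, adjusted p = 2.03e-05). The widest gap, between SCA-1+ cells and JAG1+ LMPs, was 2.19 on the log2 scale (4.55-fold, standard error 0.13, adjusted p = 1.26e-08). *Id2* passed in 9 of the 10 pairs.

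*Id3* was at 154 and 175 CPM in the SCA-1+ libraries and at 170.0, 174 and 148 CPM in chondroblasts. PDGFRa-high LMPs had 147, 135 and 130.5 CPM. The lowest libraries were those of OCPs, with 92.9, 102 and 108 CPM, and of JAG1+ LMPs, with 95.4, 98.5 and 105 CPM. The members of the top pair and of the bottom pair overlapped with each other and with no other population. The log2 difference between SCA-1+ cells and chondroblasts was 0.01 with a 95% interval from -0.21 to 0.22, and that between OCPs and JAG1+ LMPs was 0.02 with an interval from -0.17 to 0.21. PDGFRa-high LMPs exceeded OCPs, the next in order, 1.36-fold (log2 difference of OCPs -0.44, standard error 0.09, adjusted p = 0.00483). The steps above PDGFRa-high LMPs were small. Chondroblasts exceeded them by 0.25 (adjusted p = 0.0296), which was lost without chondroblast replicate 1 (0.20, adjusted p = 0.145) or 2 (0.17, adjusted p = 0.204) or without PDGFRa-high replicate 3 (0.22, adjusted p = 0.105). SCA-1+ cells exceeded them by 0.26 (adjusted p = 0.0702), which did not pass in 7 of the 14 fits that leave out 1 library. These were the fits without chondroblast replicate 1 or 2, JAG1+ replicate 2 or 3 or PDGFRa-high replicate 2 or 3, where the difference was 0.23 to 0.25 and the adjusted p 0.103 to 0.167, and the fit without replicate 3 of the SCA-1+ cells, where it was 0.16 (adjusted p = 0.470). From the lowest to the highest mean, *Id3* spanned 99.7 to 164.6 CPM. It passed in 8 of 10 pairs.

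*Id4* was read at far fewer counts than its relatives, 16 to 637 in a library. The chondroblast libraries had 18.3, 21.8 and 21.1 CPM. The other populations of the skeletal lineage and its precursors overlapped with each other, at 4.87, 7.94 and 5.93 CPM in OCPs, 7.93, 7.78 and 3.79 CPM in PDGFRa-high LMPs and 3.38, 6.45 and 5.31 CPM in JAG1+ LMPs. The SCA-1+ libraries had 0.560 and 1.35 CPM, both above the limit of a count of 0 and below every other library. Chondroblasts exceeded PDGFRa-high LMPs, the next in order, 3.11-fold (log2 difference 1.64, standard error 0.30, adjusted p = 0.000532). SCA-1+ cells were 5.27-fold lower than JAG1+ LMPs (log2 difference -2.40, standard error 0.42, adjusted p = 0.000623). The 3 populations between them did not pass against each other. OCPs against JAG1+ LMPs had a 95% interval from -0.36 to 0.96, PDGFRa-high LMPs against JAG1+ LMPs from -0.29 to 1.03 and OCPs against PDGFRa-high LMPs from -0.72 to 0.58, so that changes of up to about these sizes were not detectable at this depth. The antisense gene A330033J07Rik had 1 to 85 counts in a library. Like *Id4*, it was highest in chondroblasts (mean 2.19 CPM) and lowest in SCA-1+ cells (0.0887 CPM, below the limit of a count of 0). The libraries of OCPs (0.735 CPM), PDGFRa-high LMPs (0.703 CPM) and JAG1+ LMPs (0.452 CPM) overlapped in this antisense gene. The part of these reads in the *Id4* counts was not tested. *Id4* passed in 7 of 10 pairs.

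The pairs of populations differed in how many of the 4 Id genes passed, and so did the background. Between OCPs and JAG1+ LMPs *Id2* was the only member that passed, 1.89-fold higher in OCPs (log2 difference 0.92, standard error 0.12, adjusted p = 2.88e-05), while 47.7% of all tested genes passed. Between PDGFRa-high and JAG1+ LMPs 3 of 4 passed, all higher in PDGFRa-high LMPs, against 28.1% of all genes. *Id2* had the largest of these differences, 1.37 (2.59-fold, adjusted p = 1.68e-06). Between OCPs and PDGFRa-high LMPs, populations that differ in *Sox9* reporter activity, 3 of 4 passed, all lower in OCPs, against 20.1%. The log2 differences were -0.58 for *Id1*, -0.46 for *Id2* and -0.44 for *Id3*, so these members stood at about the same distance. Between chondroblasts and OCPs 3 of 4 passed, all higher in chondroblasts, against 34.8%. *Id1* differed by 0.58, *Id3* by 0.70 and *Id4* by 1.71. Between chondroblasts and JAG1+ LMPs 4 of 4 passed, all higher in chondroblasts, against 65.9%. Between chondroblasts and PDGFRa-high LMPs 3 of 4 passed, *Id2* lower and *Id3* and *Id4* higher in chondroblasts, against 56.2%.

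SCA-1+ cells differed from every other population in both directions. Against JAG1+ LMPs, PDGFRa-high LMPs and OCPs 4 of 4 members passed, with *Id2* and *Id3* higher and *Id1* and *Id4* lower in SCA-1+ cells, against 31.2%, 30.5% and 46.9% of all genes. Against chondroblasts 3 of 4 passed, against 63.6%. There *Id1* was 3.64-fold and *Id4* 21.2-fold lower and *Id2* 2.48-fold higher in SCA-1+ cells. These comparisons rest on 2 SCA-1+ libraries. In the fit without replicate 3, the library with red blood cell genes, *Id1*, *Id2*, *Id3* and *Id4* differed from the mean of the other 4 populations by -1.71, 1.30, 0.33 and -3.83, against -1.62, 1.39, 0.42 and -3.07 with both libraries. The lone library is then assumed to vary like those of the other groups.

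To see which population departs from the rest, the mean of the other 4 was subtracted from each. A gene is called where it passes and its log2 fold change is at least 1.2 in size. In JAG1+ LMPs *Id2* was called lower, at -1.34 (2.53-fold, standard error 0.10, adjusted p = 1.78e-07), and *Id3* was lower without reaching the fold limit, at -0.48 (adjusted p = 0.000129). *Id1* was higher by 0.21 (adjusted p = 0.0782) and *Id4* did not pass. Of all genes 49.9% passed this comparison, 2.88% were called higher and 7.70% lower. Without SCA-1+ cells in the fit and in the mean, *Id2* differed by -1.05 (adjusted p = 4.85e-06) and was no longer called, and *Id1* turned to -0.20 (adjusted p = 0.121). The small *Id1* difference was also lost without JAG1+ replicate 2 (0.17, adjusted p = 0.267) or 3 (0.16, adjusted p = 0.294), PDGFRa-high replicate 3 (0.19, adjusted p = 0.10002) or SCA-1+ replicate 2 (0.19, adjusted p = 0.143).

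In PDGFRa-high LMPs no member was called. *Id1* was 1.63-fold higher (log2 fold change 0.71, standard error 0.09, adjusted p = 0.000111) and *Id2* 1.30-fold higher (0.38, adjusted p = 0.0131), while *Id3* at 0.10 and *Id4* at 0.39 did not pass. Of all genes 15.6% passed, 1.53% were called higher and 2.31% lower. In OCPs *Id3* alone passed, at -0.46 (1.37-fold lower, adjusted p = 0.000491). *Id1* was at -0.02, *Id2* at -0.19 and *Id4* at 0.30. Here 28.5% of all genes passed, 3.37% were called higher and 1.64% lower. Without SCA-1+ cells in the fit and in the mean, *Id1* also passed as lower in OCPs, at -0.46 (adjusted p = 0.00889).

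In chondroblasts *Id4* was called higher, at 2.44 (5.43-fold, standard error 0.22, adjusted p = 5.22e-07). *Id1* was 1.64-fold higher (0.71, adjusted p = 1.23e-05) and *Id3* 1.33-fold higher (0.42, adjusted p = 0.000158), and *Id2* was lower by a small margin (-0.24, adjusted p = 0.0383). That margin did not pass without chondroblast replicate 3 (-0.18, adjusted p = 0.152) and was 0.10 (adjusted p = 0.380) without SCA-1+ cells. Of all genes 65.0% passed, 11.0% were called higher and 1.71% lower. In SCA-1+ cells 3 of the 4 members were called. *Id1* was 3.07-fold lower (-1.62, standard error 0.12, adjusted p = 1.94e-07), *Id4* 8.40-fold lower (-3.07, standard error 0.39, adjusted p = 2.51e-05) and *Id2* 2.63-fold higher (1.39, standard error 0.10, adjusted p = 6.44e-08). *Id3* passed at 0.42 (adjusted p = 0.000818). Of all genes 46.4% passed, 4.46% were called higher and 6.80% lower. The median of all tested genes lay between -0.01 and 0.05 in these 5 comparisons.

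**Figure D2:**
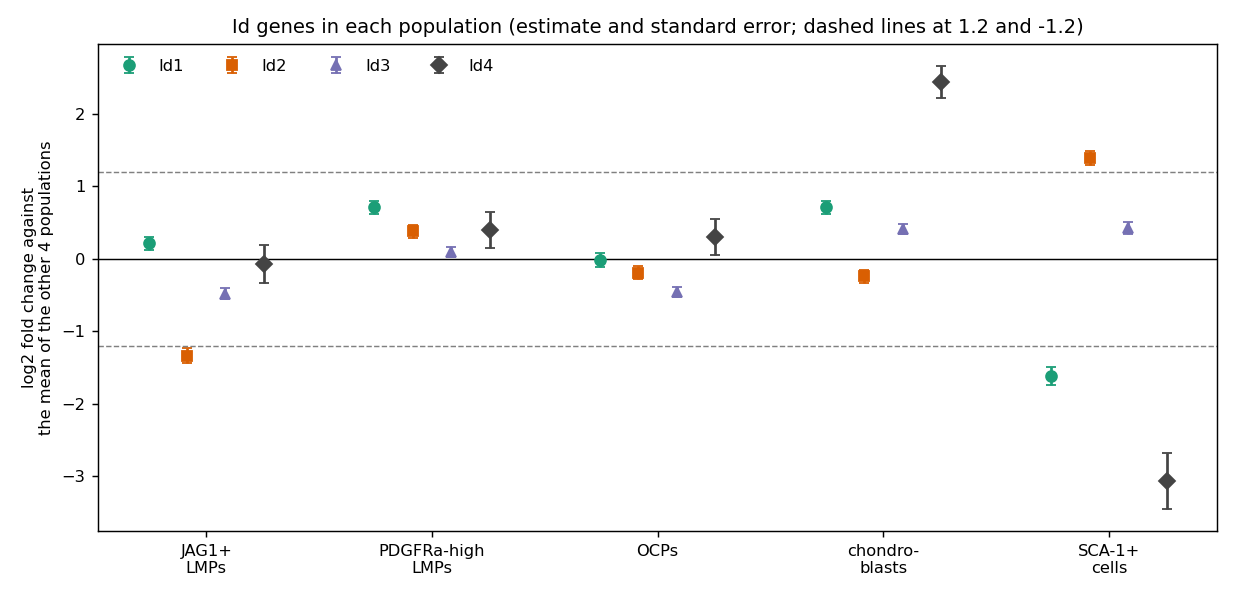
Log2 fold change (vertical axis) of each Id gene in each population against the mean of the other 4, with its standard error, from the fit of all 14 libraries. Dashed lines mark 1.2 and -1.2, and the values beyond them are Id2 in JAG1+ LMPs (-1.34), Id4 in chondroblasts (2.44) and Id1, Id2 and Id4 in SCA-1+ cells (-1.62, 1.39 and -3.07).

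Levels of different genes were compared per kilobase of the length that the count table gives (934 bases for *Id1*, 1272 for *Id2*, 953 for *Id3* and 1660 for *Id4*). On this scale the 4 genes summed to 261 CPM per kilobase ± 24.4 in JAG1+ LMPs, 294 ± 28.6 in OCPs, 412 ± 21.7 in chondroblasts, 412 ± 29.4 in PDGFRa-high LMPs and 433 ± 38.2 in SCA-1+ cells. The sum in each library of the last 3 populations, at least 378 CPM per kilobase, was above that in each library of JAG1+ LMPs and OCPs, at most 317. *Id3* made up 35.02% to 41.7% of the sum on average in each population. *Id1* made up 39.9% ± 2.00 in JAG1+ LMPs, 31.3% to 33.6% in OCPs, PDGFRa-high LMPs and chondroblasts, and 8.74% ± 0.0111 in SCA-1+ cells. *Id2* made up 18.7% ± 1.17 in JAG1+ LMPs, 21.7% ± 1.49 in chondroblasts, 30.7% ± 1.17 in PDGFRa-high LMPs, 31.4% ± 1.39 in OCPs and 51.3% ± 0.133 in SCA-1+ cells. *Id4* was between 0.130% and 2.99%. SCA-1+ cells thus had a total close to that of PDGFRa-high LMPs with another composition.

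The ratio of *Id2* to *Id1* per kilobase was 5.87 and 5.86 in the SCA-1+ libraries. It was 0.493, 0.486 and 0.429 in JAG1+ LMPs, 0.692, 0.717 and 0.545 in chondroblasts, 0.871, 0.925 and 0.967 in PDGFRa-high LMPs and 0.991, 1.09 and 0.931 in OCPs. JAG1+ LMPs, chondroblasts and SCA-1+ cells overlapped with no other population in this ratio, and PDGFRa-high LMPs and OCPs overlapped with each other. The ratio of *Id3* to *Id1* was 4.55 and 4.57 in the SCA-1+ libraries and between 0.915 and 1.36 in the other 12. The ratio of *Id2* to *Id3* was 0.431 to 0.536 in the JAG1+ and chondroblast libraries, 0.821 to 0.957 in those of OCPs and PDGFRa-high LMPs, and 1.29 and 1.28 in SCA-1+ cells. The ratios are given without a test, and how often ratios of other genes separate the populations was not determined.

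**Figure D3:**
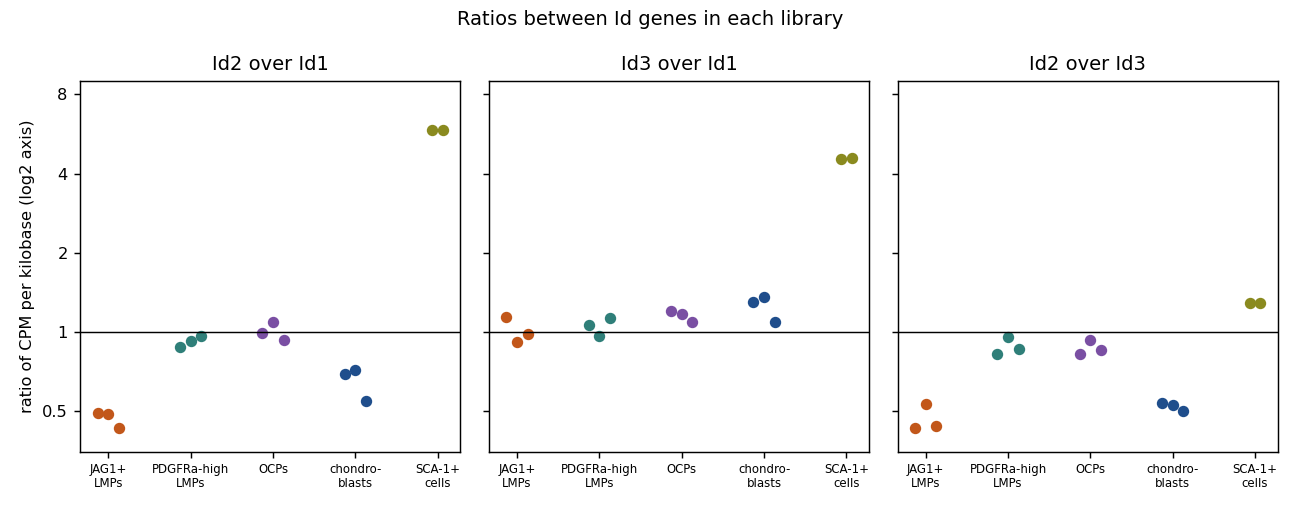
Ratio of CPM per kilobase (log2 axis) between pairs of Id genes in each of the 14 libraries, by population. The 2 SCA-1+ libraries lie at 5.87 and 5.86 for Id2 over Id1 and at 4.55 and 4.57 for Id3 over Id1, and the JAG1+ libraries lie at 0.493 or less for Id2 over Id1.

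The partners that Id proteins bind, the E proteins encoded by *Tcf3* (E12 and E47), *Tcf4* (E2-2) and *Tcf12* (HEB), were set beside the Id genes. None of the 3 was called in any comparison with the mean of the other 4. *Tcf12* passed in 5 of the 5 comparisons, from -0.33 in chondroblasts to 0.26 in SCA-1+ cells. In these comparisons 15.6% to 65.0% of all genes passed. *Tcf4* was highest in chondroblasts (0.53, adjusted p = 6.89e-05). Per kilobase, the 3 genes summed to between 333 CPM ± 15.7 in chondroblasts and 393 CPM ± 15.2 in PDGFRa-high LMPs. The sum of the Id genes divided by that of the E protein genes was 0.745 ± 0.0551 in JAG1+ LMPs and 0.776 ± 0.0699 in OCPs, below 1 in each of these 6 libraries. It was 1.05 ± 0.0518 in PDGFRa-high LMPs (0.995 in replicate 3), 1.15 ± 0.117 in SCA-1+ cells and 1.24 ± 0.108 in chondroblasts. These ratios describe transcripts and not proteins. Their size depends on the gene lengths used, so that 1 is no threshold and only the populations can be compared.

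**Figure D4:**
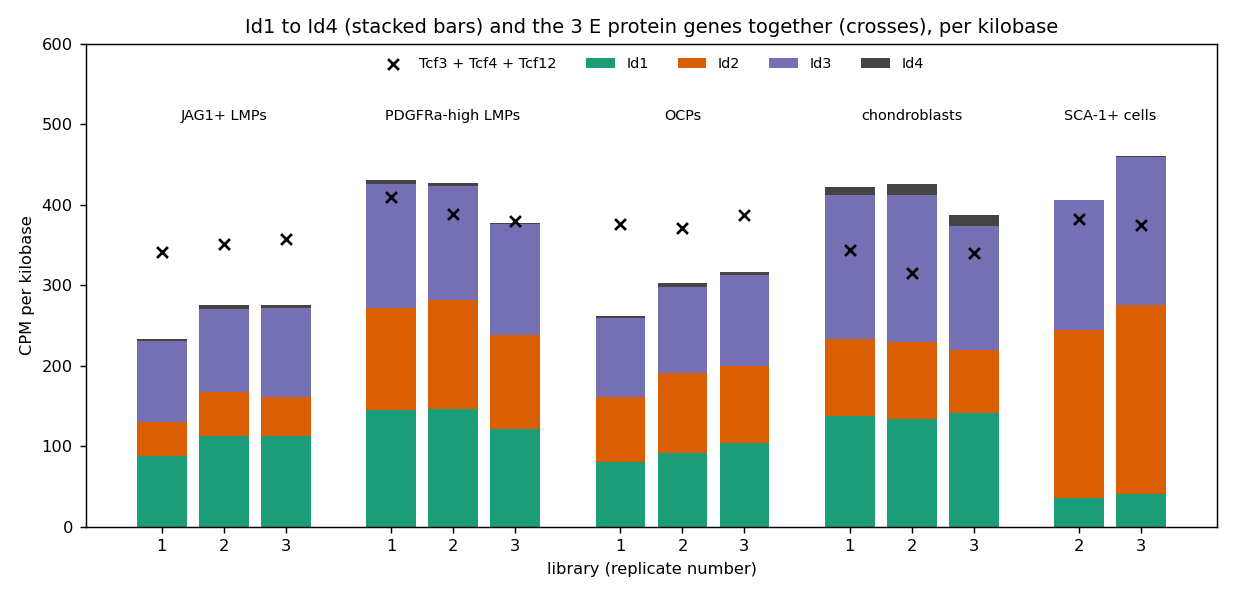
CPM per kilobase (vertical axis) of Id1, Id2, Id3 and Id4 as stacked bars in each of the 14 libraries, with the sum of Tcf3, Tcf4 and Tcf12 as a cross. The crosses lie above the bars in the JAG1+ and OCP libraries and, narrowly, in replicate 3 of the PDGFRa-high LMPs (380 against 378). The bars of the SCA-1+ libraries consist mainly of Id2 and Id3.

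The Id genes were set beside 12 other genes of the BMP response and feedback. The lists were chosen with earlier results of these data known, so that their counts and medians are a description and no test. The paper had already reported *Msx1*, *Msx2*, *Tbx2* and *Tbx3* as higher in PDGFRa-high LMPs. For this list and those that follow, the background is the share of all tested genes that passed. It was 49.9% in JAG1+ LMPs, 15.6% in PDGFRa-high LMPs, 28.5% in OCPs, 65.0% in chondroblasts and 46.4% in SCA-1+ cells. Depending on the population, 1.53% to 11.0% of all genes were called higher and 1.64% to 7.70% lower. In PDGFRa-high LMPs, where *Id1* and *Id2* passed as higher, 9 of the 12 passed as higher and 1 as lower, and their median log2 fold change was 0.77 against -0.01 for all tested genes. The T-box repressor *Tbx2* (2.85, adjusted p = 2.34e-09) and the homeobox gene *Msx2* (2.75, adjusted p = 1.96e-08) led them, both far above the largest Id difference there. In OCPs, where *Id3* passed as lower, none of the 12 passed as higher and 6 passed as lower, with a median of -0.45. *Msx1* was lowest, at -2.29 (4.89-fold lower, adjusted p = 2.17e-07), while *Smad6* and *Smad7*, the inhibitory Smads that BMP signaling induces, did not pass. In SCA-1+ cells 8 passed as lower, *Tbx3* (-2.48) and *Dlx5* (-2.69) among them, and 1 as higher, the secreted BMP antagonist *Nog* (1.58, adjusted p = 9.86e-05), with a median of -0.97. *Id1* and *Id4* were on the side of the 8 and *Id2* and *Id3* on the side of *Nog*.

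In JAG1+ LMPs the 12 genes were split. *Grem1*, a secreted BMP antagonist of the posterior and distal mesenchyme, was 2.68 higher (adjusted p = 5.16e-09), *Msx1* 2.09 higher (adjusted p = 6.08e-09) and the pseudoreceptor gene *Bambi* 1.26 higher (adjusted p = 1.06e-06), whereas *Nog* was lower (-1.43, adjusted p = 0.000586), and *Smad6*, *Smad9* and *Tbx3* passed as lower. *Msx1* was at 259.6 CPM in JAG1+ and 284 CPM in PDGFRa-high LMPs and at 22.9 CPM in OCPs, where the 3 main Id genes spanned no more than 2.59-fold among these populations. In chondroblasts 6 of the 12 passed as higher and 3 as lower, not far from the 65.0% of all genes that passed there. *Dlx5* (2.92), *Nog* (1.89) and *Smad9* (1.55) were called higher together with *Id4*, and *Msx1* (-1.998) and *Grem1* (-1.45) lower. *Smad6* stayed between 41.01 and 52.3 CPM on average in the 5 populations.

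**Figure D5:**
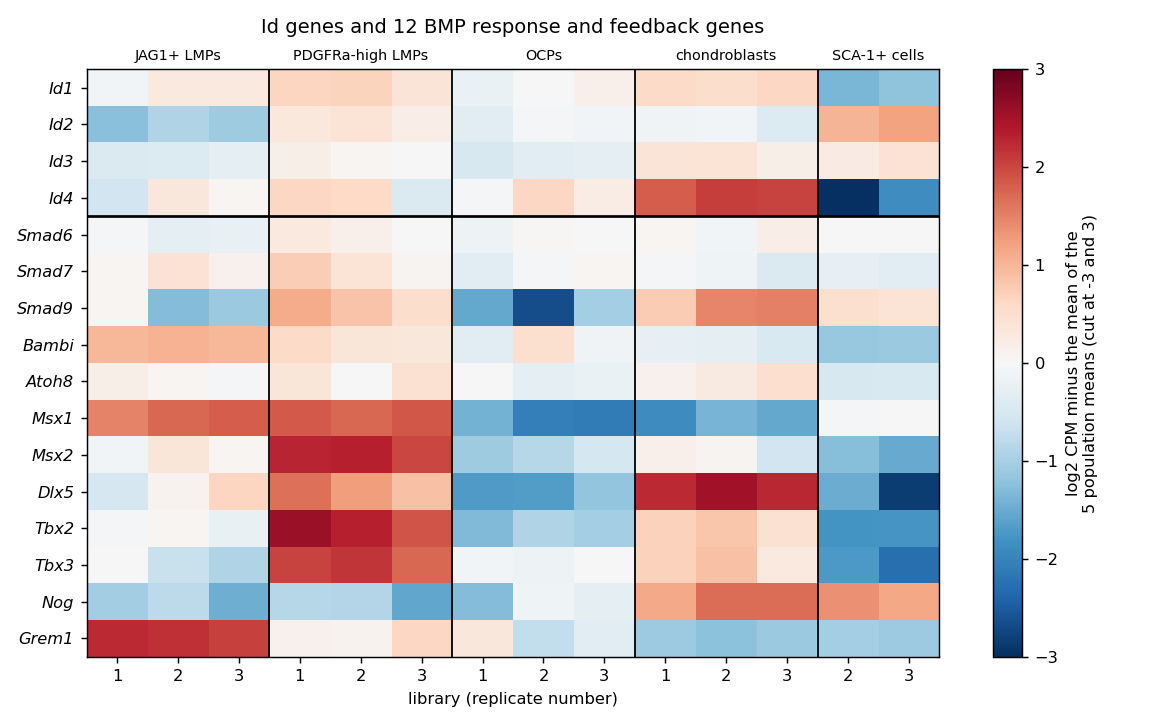
Log2 CPM of the 4 Id genes (above the line) and 12 BMP response and feedback genes (below it) in the 14 libraries, minus the mean of the 5 population means of each gene (red higher, blue lower, colours cut at -3 and 3). Msx1, Msx2, Tbx2 and Tbx3 are red in PDGFRa-high LMPs and Grem1 in JAG1+ LMPs, while Id4 is red in chondroblasts and blue in SCA-1+ cells and Id2 is blue in JAG1+ LMPs and red in SCA-1+ cells.

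The ligands came next in the pathway. In JAG1+ LMPs 4 of the 7 BMP and GDF genes passed as higher and 2 as lower, with *Bmp2* (1.82) called higher. Without SCA-1+ cells in the fit and in the mean 0 of the 7 were called higher there. *Bmp4* was at 99.2 CPM in JAG1+ LMPs and 117 CPM in PDGFRa-high LMPs, where it was called higher (1.48, adjusted p = 6.30e-07), against 35.04 CPM in OCPs, 43.2 CPM in chondroblasts and 21.0 CPM in SCA-1+ cells. In chondroblasts 6 of 7 passed as higher and 1 as lower, where 65.0% of all genes passed. The joint gene *Gdf5* (4.51, adjusted p = 3.08e-10) and *Bmp2* (2.84) led them. In OCPs 2 passed as higher and 3 as lower. In SCA-1+ cells 6 of 7 passed as lower, with *Gdf5* (-3.49) and *Bmp2* (-3.31) the lowest, in the population where *Id2* was highest. PDGFRa-high LMPs had 3 ligands that passed, all higher.

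Among the 9 genes of BMP receptors and Smads the type I receptor gene *Bmpr1b* varied most. It was at 4.602 CPM in JAG1+ LMPs, the population with the least *Id2*, where it was called lower (-3.11, 8.63-fold, adjusted p = 1.27e-09). It stood at 18.8 CPM in PDGFRa-high LMPs and 34.6 CPM in OCPs, at 45.4 CPM in SCA-1+ cells and at 84.9 CPM in chondroblasts, where it was called higher (2.14, adjusted p = 1.93e-09). *Id2* did not follow this order, at 161 CPM in PDGFRa-high LMPs, 117 CPM in OCPs, 282.6 CPM in SCA-1+ cells and 114 CPM in chondroblasts. The other 8 receptor and Smad genes stayed below the fold limit in every comparison. *Bmpr1a*, the type I receptor gene that was highest in CPM, was between 222 and 343 CPM on average, and *Smad1*, *Smad4* and *Smad5* differed by no more than 0.27 in size.

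Id proteins oppose the dimers that many bHLH factors form with E proteins. Of 16 mesodermal bHLH genes 10 had enough counts to be tested. In SCA-1+ cells 5 were called higher, all known from the muscle lineage or its somitic source: the myogenic factors *Myf5* (8.64, adjusted p = 6.03e-13), *Myod1* (7.31) and *Myog* (5.40), *Msc* (7.05), which encodes the repressor MyoR, and the somite gene *Tcf15* (3.18). *Hand2*, *Twist1* and *Hand1*, genes of limb mesenchyme, were called lower (-3.82, -1.65 and -2.05). In these libraries, those with the most *Myf5* and *Myod1*, *Id2* and *Id3* were higher than the mean of the other populations and *Id1* and *Id4* lower. *Id3* did not follow the myogenic genes in every population. It was at 164.6 CPM in SCA-1+ cells and 163.8 CPM in chondroblasts, where *Myod1* was at 0.675 CPM. *Twist2* was at most 0.71 in size in any comparison. In OCPs the tendon gene *Scx* was called higher (1.58) and *Myf5* (-2.34) and *Msc* (-2.31) lower. Both lower genes were near the limit of a count of 0 in OCPs, at 0.149 and 0.277 CPM, between JAG1+ and PDGFRa-high LMPs. Their lower calls rest on the levels in SCA-1+ cells and, for *Msc*, also in chondroblasts. In chondroblasts *Myog* (2.27), *Msc* (2.05) and *Scx* (1.28) were called higher and *Myf5* lower (-1.30), but the muscle genes stood low there, at 0.722 CPM for *Myog*, 3.20 CPM for *Msc* and 0.266 CPM for *Myf5*, against 4.08, 51.8 and 68.5 CPM in SCA-1+ cells. The *Myf5* mean of chondroblasts was the highest outside SCA-1+ cells, so its lower call rests on the SCA-1+ cells. In JAG1+ LMPs *Hand1* (1.35) and *Hand2* (1.54) were called higher and 6 genes lower, and in PDGFRa-high LMPs *Twist1* was called higher (1.25) and 5 genes lower. Most of those lower calls are of genes high in SCA-1+ cells, and without that population in the fit 5 genes were called lower in JAG1+ LMPs, 0 were called lower in PDGFRa-high LMPs and 0 were called higher in either.

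Of the Hes, Hey and Bhlhe repressors, which are bHLH proteins themselves and include Notch targets, 8 of 9 were tested. In JAG1+ LMPs 4 were called higher, *Hey1* (3.11, adjusted p = 7.06e-11), *Hey2* (1.57), *Hes7* (1.53) and *Bhlhe40* (1.39), and *Heyl* was called lower (-1.72), as was *Id2* in the same cells. In SCA-1+ cells *Heyl* (2.23) and *Hes6* (1.42), which promotes myogenesis, were called higher. None was called in chondroblasts, where 3 passed as higher and 3 as lower, and *Heyl* was called lower in PDGFRa-high LMPs (-1.51) and *Hey1* in OCPs (-1.50).

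Id proteins are known to hold back cell cycle brakes, through E proteins and, for ID2, by binding RB. Of 6 such genes 5 were tested. *Cdkn1a*, which encodes p21, was at 63.5 CPM in SCA-1+ cells and between 0.894 and 1.64 CPM in the other populations (log2 fold change in SCA-1+ cells 5.78, adjusted p = 3.56e-11), so that the population with the most *Id2* also had the most *Cdkn1a*. *Rb1* and *Rbl1*, genes of the retinoblastoma family, were lower there (-0.35 and -0.46), and *Rbl2* was highest in chondroblasts (0.95, adjusted p = 3.31e-05). *Cdkn2b* was called in 3 populations but stood at 0.0143 to 0.348 CPM on average, near the limit of a count of 0.

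The genes whose log2 CPM followed each member most closely over the 14 libraries were taken from 11881 genes with an average of at least 1 log2 CPM. For *Id1* they were *Adgrl1* (r = 0.962), *Cacna1c* (r = 0.962), *Hand2os1* (r = 0.960), *Dennd1a* (r = 0.959) and *Mpped1* (r = 0.951), all with their lowest mean in SCA-1+ cells. For *Id2* they were *Bdnf* (r = 0.966), *Pou2f2* (r = 0.951), *Dach1* (r = 0.936), *Ets1* (r = 0.932) and *Dpysl4* (r = 0.930), all lowest in JAG1+ LMPs and highest in SCA-1+ cells. *Dach1* ran from 38.2 CPM in JAG1+ LMPs to 158 CPM in SCA-1+ cells. *Id3* was followed less closely, by *Lox* (r = 0.902), *Tbc1d2b* (r = 0.901), *Rprm* (r = 0.896), *Dkk2* (r = 0.891) and *Tmem30b* (r = 0.885). For *Id4* they were *Zcchc18* (r = 0.970), *Cfap36* (r = 0.969), *Gp1bb* (r = 0.964), *Tshz1* (r = 0.961) and *Katnal1* (r = 0.961), all highest in chondroblasts and lowest in SCA-1+ cells. *Tshz1* was at 358 CPM in chondroblasts and 50.7 CPM in SCA-1+ cells. The 14 points share 5 populations and are not independent, and with so many genes searched close matches are found for most patterns, so these values are a description. The correlations of the 12 BMP response and feedback genes with *Id1* ran from -0.259 (*Nog*) to 0.815 (*Dlx5*). With *Id2* they ran from -0.742 (*Bambi*) to 0.513 (*Smad6*). The range was -0.726 (*Grem1*) to 0.798 (*Smad9*) with *Id3* and -0.316 (*Msx1*) to 0.750 (*Dlx5*) with *Id4*.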

How the data were processed

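RNA-seq counts of 14 libraries were used. Per the labels and the paper's methods, the authors purified poly(A)+ RNA, prepared libraries with NEBNext kits, aligned single-end reads to mm10 with STAR, keeping 1 position for a read with several, and counted them in RefSeq exons with QuasR. The deposited counts are whole numbers per gene without normalization, and the same file gives the length per gene that the values per kilobase use. Of 24454 Entrez identifiers 24374 were matched to RefSeq symbols. Members and lists were chosen with earlier results of these data known. Genes were kept with filterByExpr (15125 genes), scaled by TMM (factors 0.957 to 1.06) and fitted with edgeR 4.0.16 in R 4.3.3, with a mean for each population and no replicate term. The standard error is the log2 fold change divided by the square root of F, and intervals are 95%. The correlations used log2 CPM with a prior count of 2. Named are the members, the fixed lists and markers and the 5 genes most alike each member. The labels number the replicates and the study calls them biological, and their counts differed by more than sampling noise (chi-square per degree of freedom of at least 8.20 in 13 pairs). Deviations from the population mean correlated by -0.18 to 0.31 between same-numbered libraries and by -0.31 to 0.41 between differently numbered ones. The highest value was that of OCPs replicate 1 with PDGFRa-high LMPs replicate 3. Whether libraries of different populations share a pool of buds was not tested, and all were fitted as independent. Alternatives used DESeq2 1.42.0, other scaling, filters and tests, and fewer libraries. The procedure was tested on simulated data. Sequences were read with Python 3.11.15 from GENCODE vM21 and RefSeq tables of GRCm38. The promoter window of *Id1* was not analysed here. A marker of red blood cells is not reported here and was left out of their sum.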

Additional observations from a re-analysis of the deposited data

How the results depend on the processing

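Across the alternatives, 134 of 135 counts of called or differing Id genes were as in the reported fit. The exception was the fit without SCA-1+ cells, where 0 Id genes were called in JAG1+ LMPs instead of 1. That fit, with each population set against the mean of the other 3, also turned *Id1* in JAG1+ LMPs to -0.20 and *Id2* in chondroblasts to 0.10, and passed *Id1* in OCPs (-0.46), *Id3* in PDGFRa-high LMPs (0.23) and *Id4* in JAG1+ LMPs (-0.89). The contrast itself changes there, because a population at the end of the range leaves the mean. The fit without chondroblasts, chosen after the values were seen, passed *Id3* (0.23) and *Id4* (1.08) in PDGFRa-high LMPs and *Id2* (-0.27) and *Id4* (0.97) in OCPs, with the contrast changed in the same way. With library totals, *Id1* in JAG1+ LMPs (0.16) and *Id2* in chondroblasts (-0.14) no longer passed, and the median of all genes in chondroblasts moved by 0.10. With 1 library left out, *Id1* in JAG1+ LMPs ranged from 0.16 to 0.32, *Id2* in chondroblasts from -0.32 to -0.18 and *Id2* in OCPs from -0.25 to -0.10. In pairs of populations 868 of 880 values kept their direction and side of the limit, and the 12 others are those given for *Id1* and *Id3* above.

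With the replicate number as a block, no call of an Id gene changed, and *Id2* in JAG1+ LMPs was at -1.33. Of 1722 counts of list genes 134 moved by over 1.5 times. Over the lists, 87 calls were made, 82 to 91 with a library left out, 72 with a filter of 1 CPM in 3 libraries and 177 without the fold limit. A fit that leaves out a SCA-1+ library assumes that the lone library varies like the other groups. The depth limits *Id4*, whose smallest count was 16.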
